A study of Mus musculus with 4 samples.

Results

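Chondrogenic callus cells are the cells of the healing fracture that make cartilage matrix. They were chosen by measured RNA, as quality-filtered cells with at least 3 UMIs (unique molecular identifiers, each standing for 1 captured RNA molecule) of *Acan*, at least 10 of *Col2a1*, at least 1 of *Sox9* and none of *Ptprc*, the pan-leukocyte gene CD45. Of 27874 cells that passed the quality filter, 465 met this rule. They came from single-cell RNA-seq of mouse tibial fracture callus in 4 libraries, 1 for each combination of condition and day after fracture (dpf, days post fracture). Control libraries (control_4d, control_7d) came from vehicle-treated mice. The RA libraries (RA_4d, RA_7d) came from mice given K/BxN serum, which carries autoantibodies and induces an arthritis with systemic inflammation, on the day of fracture and again during repair. The mice of both conditions were 3-month-old wild-type C57BL/6J males. In both conditions the soft callus was scraped from the periosteal surface, so cells inside the cortical bone and marrow were largely left behind, and the released cells of several mice were pooled before loading. Each group was therefore 1 library from a pool (the labels give 4 mice and the study's methods 3), with no replicate. No test between conditions was possible, a difference between conditions and a difference between libraries cannot be told apart, and all 95% intervals given here cover counting error only.

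In fracture repair of the endochondral kind, progenitors of the periosteum condense and become chondrocytes, which lay down a cartilage template that is later replaced by bone. Sox9, with its partners Sox5 and Sox6, switches on the genes for collagen II, collagens IX and XI, aggrecan and the link protein that ties aggrecan to hyaluronan. Older chondrocytes stop dividing, enlarge and turn to hypertrophy, when they make collagen X (*Col10a1*) and Indian hedgehog (*Ihh*), and part of them mineralize their matrix or go on to express bone genes.

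The libraries held 168210361 (control_4d), 177131833 (control_7d), 130168130 (RA_4d) and 182259646 (RA_7d) UMIs in the cell barcodes, and 6306, 8203, 4766 and 8599 cells passed the filter. Of the chondrogenic cells, 310 came from control_7d, 151 from RA_7d and 4 from control_4d, and RA_4d had 0. The cells were deep in both 7 dpf libraries, with a median of 33071 UMIs and 5790 genes in control_7d and 33925 UMIs and 5725 genes in RA_7d, and their median mitochondrial share was 2.92% and 2.82%. As a comparison population, cells with at least 20 *Col1a1* UMIs and no *Acan* UMI were used, 2052 in control_7d and 3597 in RA_7d. Their median depths were 24331.5 and 24322 UMIs. No limit on *Ptprc* was set for them, so they are not mesenchymal cells alone. Myeloid markers summed to 1008 and 769 CPM in them, against 117 and 97.7 CPM in chondrogenic cells. Cells with a *Ptprc* UMI, 3310 and 2306 at 7 dpf, served as a background for free RNA, which puts UMIs of abundant genes into cells that do not express them. This background is not a pure one, since 48 and 15 of these cells met every other condition of the chondrogenic rule. Between libraries, 129 of 33909 different barcode sequences recurred, 79 among the cells that passed the filter and none among chondrogenic cells. Scrublet called 7 of the control_7d cells (2.26%) and 8 of the RA_7d cells (5.30%) doublets. It called only 0.042% of the kept RA_4d cells, so doublets were not removed.

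The 4 cells of control_4d stood apart from those of 7 dpf and went against the name. They held 67324 to 91655 UMIs, *Col2a1* at 11, 15, 17 and 48 UMIs, and *Acan* at 4 to 55 UMIs, but no UMI of *Hapln1* (link protein) or *Col10a1*, while *Mki67*, a proliferation marker, was at 3 to 26 UMIs in every one. They are left out of everything below except the share.

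At the edge of the rule, *Col2a1* divided a continuous range and *Acan* and *Sox9* removed few cells. The 19 cells just inside, with 10 to 14 *Col2a1* UMIs, had a median of 32 *Acan* UMIs and 1 *Hapln1* UMI, and all but the 1 of control_4d were from control_7d. The 31 cells just outside, with 5 to 9 *Col2a1* UMIs, had medians of 20 *Acan* and 1 *Hapln1* UMIs. A far larger number, 1196 cells in the 4 libraries, met every other condition with 0 to 4 *Col2a1* UMIs, at medians of 9 *Acan*, 4 *Sox9* and 0 *Hapln1* UMIs. Of these, 148 were from control_4d, 659 from control_7d, 101 from RA_4d and 288 from RA_7d. The 9 cells just inside the *Acan* limit (3 or 4 UMIs) had a median of 22 *Col2a1* UMIs, and the 6 cells with 1 or 2 *Acan* UMIs that fell outside had a median of 16. With *Sox9* at 1 UMI 26 cells were inside, and with *Sox9* at 0 another 21 fell outside, at median *Col2a1* of 134 and 132 UMIs. A *Ptprc* UMI removed 63 cells, 48 in control_7d and 15 in RA_7d, of which 12 were called doublets.

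The first question was how many such cells each callus held. Their share of the kept cells was 0.0634% in control_4d (exact Clopper-Pearson 95% interval 0.0173 to 0.162%), 3.78% in control_7d (3.38 to 4.21%) and 1.76% in RA_7d (1.49 to 2.06%). None was found among 4766 cells of RA_4d, which allows a share of up to 0.0629% by a floor of 3 counts, or 0.0774% by the upper Clopper-Pearson limit. The share in RA_7d was 0.465 times that in control_7d (0.380 to 0.566, exact conditional interval). A lower share in RA_7d was not particular to them. Cells that met every other condition with 0 to 4 *Col2a1* UMIs were 659 of 8203 in control_7d and 288 of 8599 in RA_7d. Of the chondrogenic and comparison cells as 1 pool, 13.1% in control_7d (310 of 2362) and 4.03% in RA_7d (151 of 3748) were chondrogenic, a ratio of 0.307. Among cells without a *Ptprc* UMI the shares were 6.34% and 2.40%, a ratio of 0.379, an alternative added after the data were seen. Since loading was set to the same cell number for every pool, these are shares of the recovered cells and not numbers of cells per callus.

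**Figure D1:**
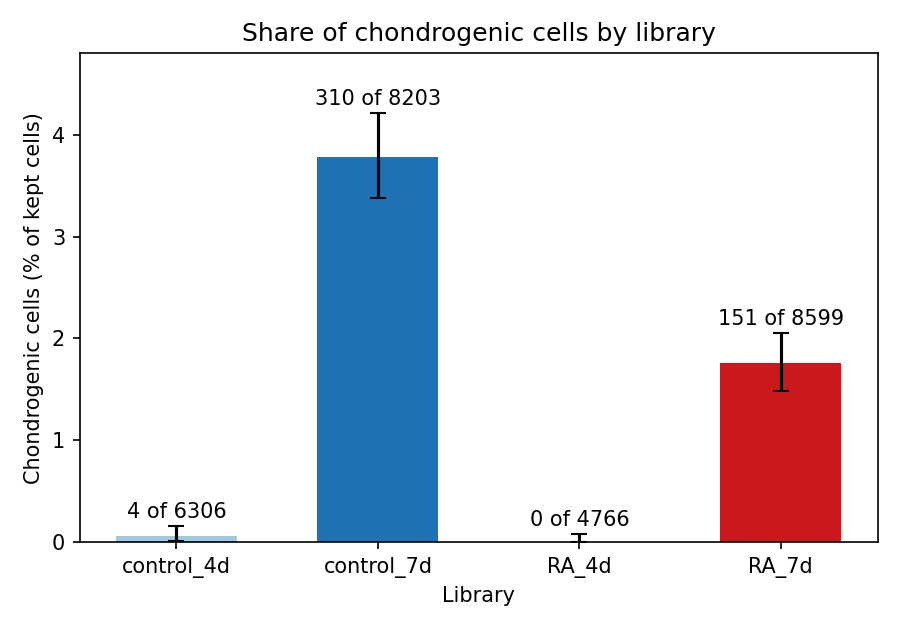
Share of kept cells (percent, y axis) that met the chondrogenic rule in each of the 4 libraries, with exact Clopper-Pearson 95% intervals and the number of cells above each bar. The bar of control_7d (3.78%) stands above that of RA_7d (1.76%) with intervals that do not overlap, and the 4 dpf libraries lie near 0.

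Beyond the genes of the rule, the 7 dpf cells carried other cartilage genes. *Hapln1* was detected in 95.5% of the control_7d and 98.7% of the RA_7d cells, against 8.82% and 8.37% of the cells with a *Ptprc* UMI, whose median depth was 11960 and 12290.5 UMIs. After every cell was thinned to 4000 UMIs those shares were 85.8% and 88.7% against 4.08% and 3.38%. *Col9a3*, a chain of the collagen IX that coats cartilage fibrils, was found in 90.3% and 97.4% of the thinned cells, and *Sox6* in 81.9% and 81.5%, against 4.92%, 4.81%, 2.57% and 2.56% of the cells with a *Ptprc* UMI. *Sox5* was less specific, with UMIs in 59.0% and 70.9% of thinned chondrogenic cells but also in 35.4% and 40.6% of the comparison cells. The name given to the cells thus rests on genes that the rule did not use.

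UMIs were then summed over the cells of a library and expressed as CPM, the count scaled to a total that is the same for every sum, and populations were compared as log2 ratios with 1 CPM added. Genes with at least 50 UMIs over the sums were counted, and a gene was called higher or lower where the log2 ratio reached 1 in size. Against the comparison cells, both libraries together, 4.42% of 14944 genes were higher and 11.9% lower in this sense. Because the rule chose these populations by their RNA, these values describe them and nothing was read from the counts. All 7 cartilage collagen genes were higher, with a median log2 ratio of 7.65 in control_7d and 8.47 in RA_7d, as were 14 of 17 cartilage proteoglycans and matrix linkers (medians 5.73 and 4.92), 11 of 13 hypertrophy genes (4.95 and 5.12) and 6 of 10 chondrogenic transcription factors (2.27 and 2.55). Of 11 osteoblast genes 6 were higher and 1 lower (1.71 and 1.83), with *Sp7* (osterix), a transcription factor of bone, in 18.1% and 20.5% of thinned chondrogenic cells and 0.390% and 0.195% of thinned comparison cells.

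Of the 15 genes furthest above the comparison cells, *Acan* and *Col2a1* were of the rule, and 8 of the others follow. *Hapln1* stood at 3102 CPM in control_7d and 3646 CPM in RA_7d, log2 ratios of 9.49 and 9.72 over the comparison cells. *Snorc*, a transmembrane proteoglycan of chondrocytes, followed at 8.88 and 8.87, *Col9a1* at 8.54 and 8.95, *Col9a3* at 8.32 and 8.57, *Matn3* (matrilin-3) at 7.79 and 7.96 and *Cnmd* (chondromodulin, an inhibitor of vessel growth) at 7.57 and 8.12. *Panx3*, a channel protein of prehypertrophic chondrocytes and osteoblasts, was at 7.90 and 7.81. *Mia*, a secreted cartilage protein, was at 7.74 in control_7d and 8.82 in RA_7d.

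The 10 genes furthest below the comparison cells were *Saa3*, *Sfrp4*, *S100a8*, *C3*, *Mmp3*, *Dpt*, *Cfb*, *Tmeff2*, *Cd34* and *Pi16*. *Sfrp4*, a secreted Wnt antagonist, was at log2 ratios of -4.23 and -4.27, the complement gene *C3* at -4.45 and -4.15, *Dpt* (dermatopontin) at -3.82 and -4.06 and *Cd34* at -3.72 and -3.80. *Pi16*, a marker of fibroblast precursors, was at 1.82 and 16.7 CPM in chondrogenic cells against 57.8 and 227 CPM in the comparison cells, and *Mmp3* (stromelysin) at 1.64 and 25.1 against 88.2 and 387 CPM. Of 18 progenitor and fibroblast genes 14 were lower, as were 22 of 29 genes of the NF-kB and inflammatory response and all 16 interferon and MHC class I genes. The inflammatory gene that was higher was *Ptgs2* (cyclooxygenase-2), at 371 and 263 CPM against 85.8 and 117 CPM. Genes of cholesterol synthesis were higher in 14 of 18 cases, beside 4.42% of all 14944 genes, with *Fdps* at 166 and 127 CPM against 36.8 and 13.6 CPM.

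RNA of collagen I and other widely expressed matrix genes was abundant as well. *Col1a1*, the major collagen of bone and connective tissue, was at 12294 CPM in control_7d and 7614 CPM in RA_7d, against 11855 and 15172 CPM in the comparison cells. At least 20 *Col1a1* UMIs were present in 98.4% and 97.4% of the chondrogenic cells. Cells with a *Ptprc* UMI held it at 3226 and 4309 CPM, with a UMI in 60.9% and 61.9% of them after thinning. *Sparc* (osteonectin) stood at 9813 and 8350 CPM against 6431 and 8759 CPM, and *Fn1* (fibronectin) at 4961 and 3246 CPM against 3219 and 3322 CPM. *Col3a1*, the collagen of loose tissue, was at 4499 and 4598 CPM, well under the 13665 and 21535 CPM of the comparison cells.

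**Figure D2:**
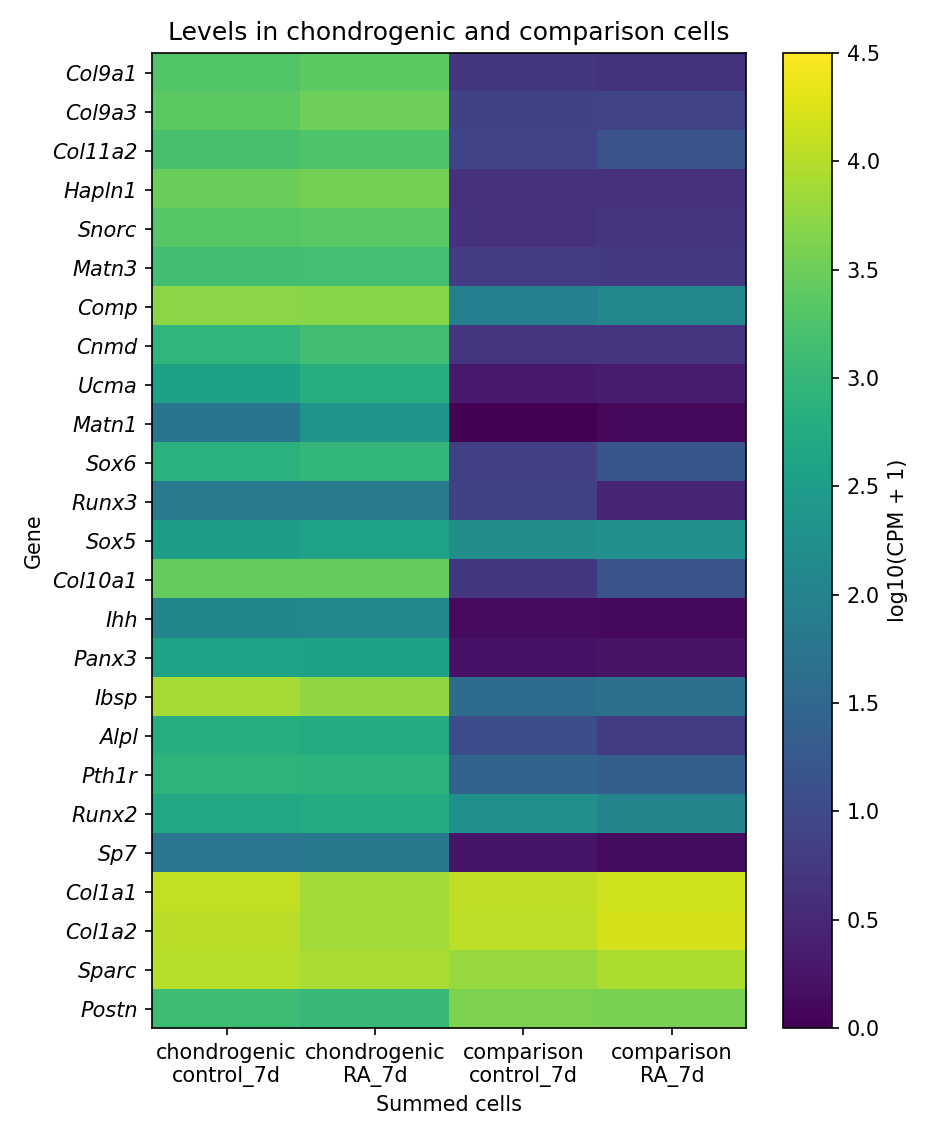
Heat map of log10(CPM + 1) for 25 genes (rows) in the summed chondrogenic cells and summed comparison cells (at least 20 Col1a1 UMIs, no Acan UMI) of control_7d and RA_7d (columns). Cartilage genes such as Hapln1 (3102 and 3646 CPM) are bright in the chondrogenic columns of both libraries only, whereas Col1a1 is bright in all 4 columns.

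The cells varied widely in how much cartilage matrix RNA they held. *Col2a1* ranged from 10 to 3630 UMIs per cell in control_7d, with quartiles of 64.25, 373.5 and 1045, and from 16 to 4058 UMIs in RA_7d, with quartiles of 82.5, 363 and 1175.5. Cells with 10 to 99, from 100 to below 1000 and at least 1000 *Col2a1* UMIs numbered 94, 134 and 82 in control_7d and 40, 66 and 45 in RA_7d, and the share of each range did not differ between libraries beyond counting error (ratios 0.874, 1.01 and 1.13, with 95% intervals from 0.588 to 1.28, 0.741 to 1.37 and 0.765 to 1.64). Per cell, the median *Acan* level was 2840 CPM in control_7d and 2790 CPM in RA_7d, and that of *Sox9* 445 and 466 CPM. The medians of *Acan* and *Sox9* lay close together, while the lowest *Col2a1* counts, 10 to 14 UMIs, were found in control_7d alone of these libraries. Since the rule was set on these genes, this is a description.

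Across cells, the other collagens of cartilage followed *Col2a1*. Spearman's rho with *Col2a1* over the 310 cells of control_7d was 0.90 for *Col9a2*, 0.90 for *Col11a2*, 0.89 for *Col9a1* and 0.82 for *Hapln1*, and over the 151 cells of RA_7d it was 0.91, 0.89, 0.86 and 0.74. *Lgals1* (galectin-1) ran the other way at -0.75 and -0.67, and *Postn* (periostin, a gene of periosteal progenitors) at -0.70 and -0.58. In the sums, *Lgals1* fell from 2834 CPM in the control_7d cells with 10 to 99 *Col2a1* UMIs to 479 CPM in those with at least 1000, and in RA_7d from 1769 to 354 CPM. All cells of a library share its depth and its free RNA, and CPM of 1 abundant gene presses on the rest, so these correlations are descriptions.

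**Figure D3:**
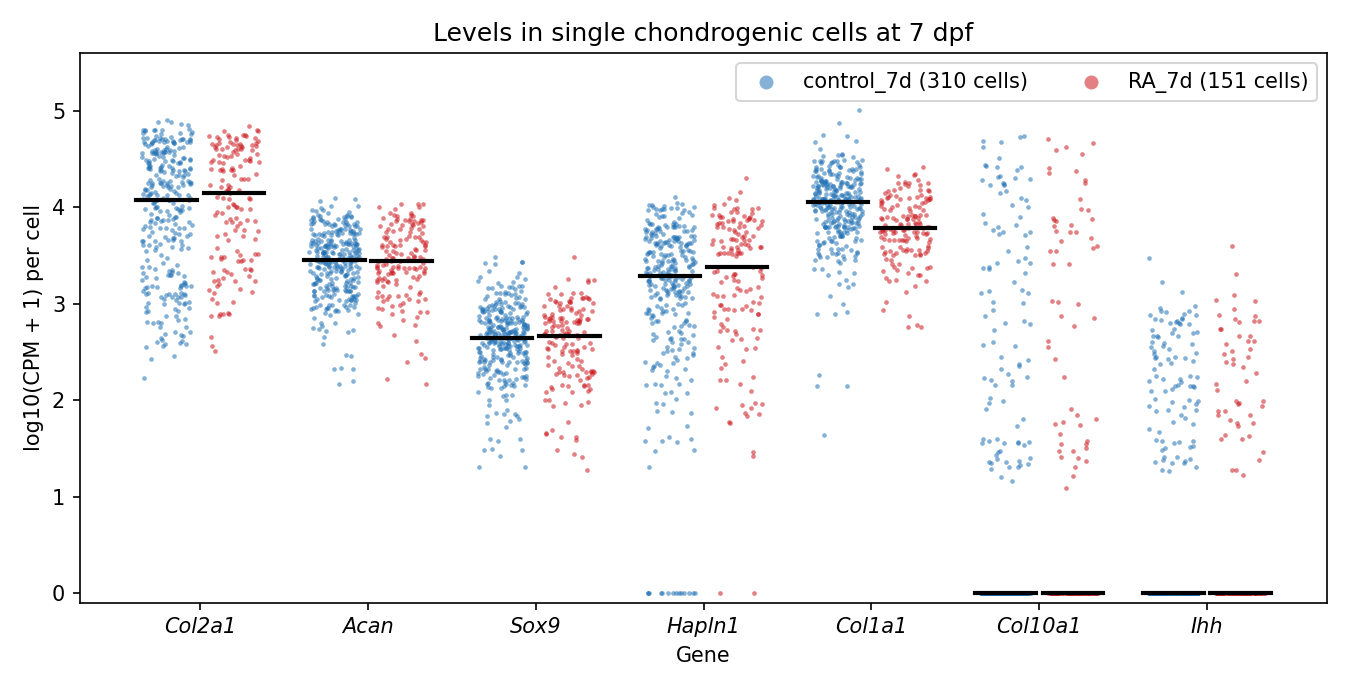
Level of 7 genes in each chondrogenic cell, as log10(CPM + 1) on the y axis, for control_7d (310 cells) and RA_7d (151 cells), with a black line at the median. The medians of Col2a1 (11970 and 13908 CPM) and Acan (2840 and 2790 CPM) lie close together, while that of Col1a1 is 11308 CPM in control_7d and 6060 CPM in RA_7d.

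A part of the cells had entered hypertrophy. At least 3 *Col10a1* UMIs were found in 76 of 310 cells of control_7d (24.5%, 19.8 to 29.7%) and 40 of 151 cells of RA_7d (26.5%, 19.6 to 34.3%), and none at all in 205 and 92 cells. After thinning, the shares were 19.4% and 23.2%, a ratio of 1.20 with a counting interval of 0.766 to 1.85. A difference between conditions was not tested, as each is a single library. Any *Col10a1* UMI was present in 24.8% and 28.5% of the thinned chondrogenic cells, against 3.35% and 3.86% of cells with a *Ptprc* UMI. For *Ihh* these shares were 17.4% and 19.2%, against 0.483% and 0.260%.

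*Ihh* was found mostly in the cells that held *Col10a1*. Its level was 373 CPM in control_7d and 414 CPM in RA_7d among cells with at least 3 *Col10a1* UMIs, and 12.9 and 11.9 CPM among those with none. Over single cells rho between the pair was 0.71 in both libraries, and 0.74 and 0.60 in thinned cells. The other genes of at least 100 CPM that followed *Col10a1* most closely in control_7d were *Cpe* (0.65, and 0.53 in RA_7d), *Prkg1* (0.64 and 0.37), *F13a1* (0.63 and 0.61), *Ccdc80* (0.63 and 0.50), *Bmp6* (0.62 and 0.47), *Mef2c* (0.61 and 0.44) and *Chad* (0.61 and 0.44). *Mef2c* encodes a transcription factor of hypertrophy and *Chad* chondroadherin, a matrix protein.

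The 250 bases upstream of the annotated starts of *Col10a1* and *Ihh* are shown because this pair marked the hypertrophic cells. Sequences are from RefSeq (mouse build GRCm38.p6), 5′ to 3′ on the gene's own strand. Capitals mark ACAAAG (a core bound by Sox proteins, reverse strand CTTTGT) or TGTGGT (a core bound by Runx proteins, reverse strand ACCACA). *Col10a1* lies on the plus strand with its window at chr10:34389731-34389980, and *Ihh* on the minus strand at chr1:74951673-74951922.
Col10a1: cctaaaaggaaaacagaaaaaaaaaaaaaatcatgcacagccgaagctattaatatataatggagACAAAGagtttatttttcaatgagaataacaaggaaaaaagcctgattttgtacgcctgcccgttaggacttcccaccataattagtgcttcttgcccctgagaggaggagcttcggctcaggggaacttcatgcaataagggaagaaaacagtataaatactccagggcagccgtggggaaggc
Ihh: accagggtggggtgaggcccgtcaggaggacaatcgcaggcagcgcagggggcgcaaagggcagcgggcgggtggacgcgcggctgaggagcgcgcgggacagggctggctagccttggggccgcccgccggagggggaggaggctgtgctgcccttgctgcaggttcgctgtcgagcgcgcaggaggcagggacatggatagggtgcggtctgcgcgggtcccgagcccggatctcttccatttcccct
The *Col10a1* window held 1 Sox core, 185 bases before the start, and the *Ihh* window neither. On either strand, 16.5% of 32851 promoter windows of the same length held the Sox core and 14.05% the Runx core, so a match is a description of the letters and no more.

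Cells with at least 3 *Col10a1* UMIs were set against those with none within each library, as a description since *Col10a1* made the split. *Pth1r*, the PTHrP receptor of prehypertrophic chondrocytes, was at 1592 and 1557 CPM in them, log2 ratios of 1.65 and 1.70 over cells without *Col10a1*. *Alpl*, the alkaline phosphatase of mineralizing cells, was at ratios of 1.33 and 1.66, *Mmp13*, the collagenase that opens hypertrophic cartilage, at 3.45 and 3.03, *Phex* at 3.45 and 3.15 and *Spp1* (osteopontin) at 2.86 and 3.19. *F13a1*, the coagulation factor XIII A chain, a transglutaminase, showed 5.52 and 5.96, *Irx5* 4.57 and 4.45, *Hpgd* (a prostaglandin-degrading enzyme) 4.11 and 5.33 and *Pcsk6* 3.54 and 4.15. *Acan* itself was at 1.12 and 0.96.

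Other genes were lower in the *Col10a1*-positive cells. *Aspn* (asporin) stood at log2 ratios of -3.45 and -2.50, *Fbn2* (fibrillin-2) at -3.03 and -3.04, *Ptx3* at -3.33 and -3.69, *Lgals1* at -2.21 and -2.24 and *Birc5*, a gene of mitosis, at -2.05 and -4.25. Cycling cells, those with a UMI in at least 2 of *Mki67*, *Top2a*, *Cdk1* and *Birc5*, made up 32.3% of control_7d and 29.1% of RA_7d, or 12.3% and 11.9% after thinning (ratio 0.972, 0.522 to 1.75). Only 7 and 3 cells both cycled and held at least 3 *Col10a1* UMIs. *Ptch1*, the hedgehog receptor and a target of the pathway, was at -0.72 in control_7d, short of the fold, and -1.75 in RA_7d.

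**Figure D4:**
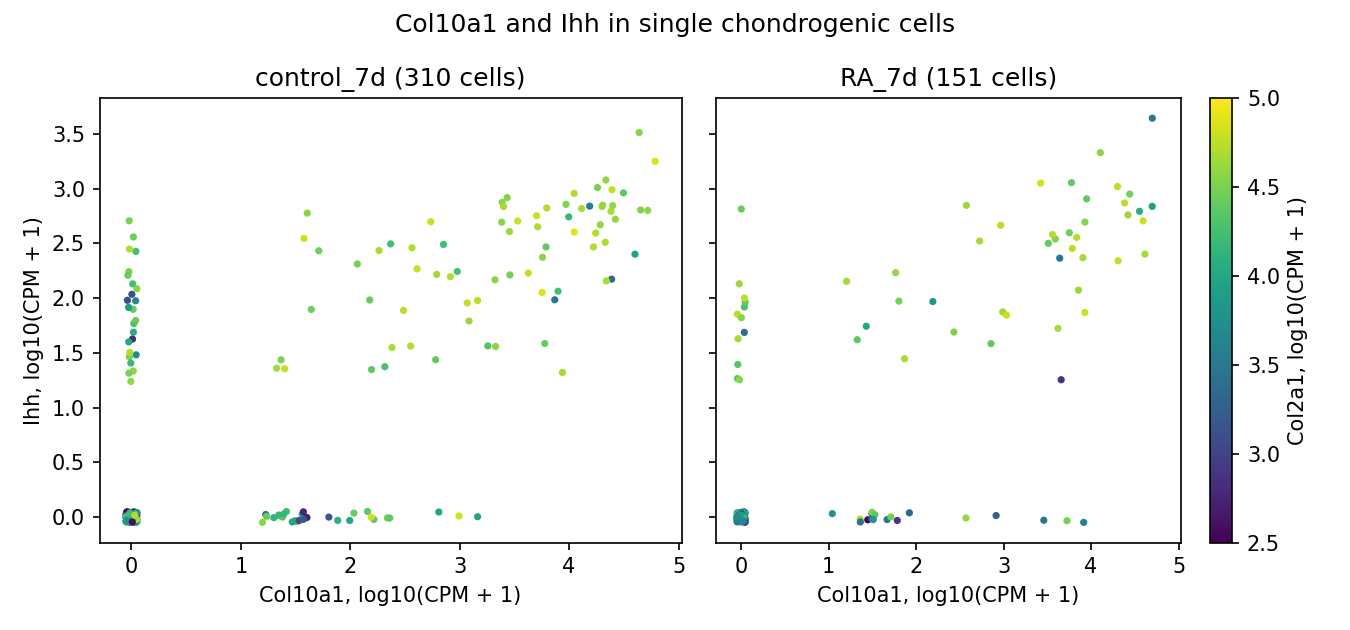
Col10a1 against Ihh in single chondrogenic cells of control_7d (left, 310 cells) and RA_7d (right, 151 cells), with points jittered and coloured by Col2a1. Cells with Ihh lie mostly among those with high Col10a1 in both panels (rho 0.71 in each), and both groups of cells are present in both libraries.

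The main comparison asked whether chondrogenic cells of the arthritic callus differed from control ones at 7 dpf. Of 11381 genes tested, 233 (2.05%) were past the fold, 141 higher (1.24%) and 92 lower (0.808%) in RA_7d. The median log2 ratio was 0.01, its quartiles were -0.18 and 0.21, and 5872 ratios were above 0. The shares of 1.24% and 0.808% stand beside each list count over all chondrogenic cells below. Of 3506 genes at 50 CPM or more in either library, 15 were higher and 13 lower. In 29 of the 233 genes past the fold, most UMIs of 1 library came from a single cell, and without the highest cell of each library 124 genes were higher and 143 lower. Among comparison cells 1.63% of 16982 genes were higher and 0.954% lower in RA_7d.

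The genes of the rule are given as a description, since the same limits were set on them in both libraries. *Col2a1* was at 20148 CPM in control_7d and 21144 CPM in RA_7d (log2 ratio 0.07), *Acan* at 3667 and 3583 CPM (-0.03) and *Sox9* at 592 and 555 CPM (-0.09). Of the 7 cartilage collagen genes, which include *Col2a1*, none passed the fold, and all 7 ratios were above 0, with a median of 0.19. With at least 6 *Acan* and 20 *Col2a1* UMIs required, 6 of 7 were above 0 and the median was 0.12. Other collagens of cartilage followed *Col2a1* over cells, so these ratios are not free of the rule. *Col9a3* was at 2356 and 3173 CPM (0.43), *Col9a2* at 1233 and 1614 CPM (0.39) and *Col11a1* at 6951 and 7475 CPM (0.10).

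Of 17 proteoglycans and linkers 3 were past the fold, all higher in RA_7d, beside 141 of all 11381 genes. The list's median was 0.23, against 0.01 over all genes and 0.19 for the same list in the comparison cells. With 10 CPM added 1 of 17 was higher, beside 37 of 11381 genes. The 3 were *Matn1* (matrilin-1), *Epyc* (epiphycan), at 13.2 and 33.4 CPM, and *Cytl1*, at 6.93 and 20.6 CPM. Short of the fold lay *Ucma*, a matrix protein of young chondrocytes, at 370 and 634 CPM (0.78), *Cnmd* at 910 and 1316 CPM (0.53), *Chad* at 349 and 465 CPM (0.41) and *Hapln1* (0.23). *Comp* (cartilage oligomeric matrix protein) at 5155 and 5044 CPM and *Matn3* at 1378 and 1456 CPM hardly moved, and *Fmod* (fibromodulin) was at 1082 and 853 CPM (-0.34). Per cell, the median of *Cnmd* was 691 CPM in control_7d and 1000 CPM in RA_7d.

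None of 11 chondrogenic transcription factors passed the fold (median -0.09, 3 above 0). *Sox6* was at 759 and 946 CPM (0.32), *Sox5* at 314 and 396 CPM (0.33), *Zbtb20* at 951 and 1158 CPM (0.28), *Trps1* at 1136 and 1010 CPM and *Mef2c* at 706 and 619 CPM (-0.19). Enzymes of glycosaminoglycan synthesis and sulfation (none of 19 past the fold, median 0.06) were led by *Xylt1*, which starts the sugar chain, at 776 and 816 CPM, and *Papss2*, which makes the sulfate donor, at 585 and 439 CPM. In collagen folding and secretion none of 26 passed (median -0.12), with the collagen chaperone *Serpinh1* at 2181 and 1930 CPM.

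Among the 12 largest rises at 50 CPM or more were *Matn1* and *Mia*. *Matn1* was at 55.8 CPM in control_7d and 232 CPM in RA_7d (log2 ratio 2.03), a ratio of 4.15 (3.77 to 4.58, exact conditional interval). It was detected in 20.3% and 45.7% of cells, and after thinning in 7.42% and 29.1%, against 0.363% and 0.347% of cells with a *Ptprc* UMI. *Mia* was at 433 and 1123 CPM (1.37; ratio 2.59, 2.49 to 2.69), with UMIs in 43.2% and 69.5% of the thinned cells against 1.57% and 1.91% of cells with a *Ptprc* UMI, and its per-cell median went from 68.0 to 499 CPM.

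Both genes kept their direction in every subset of cells compared. For *Matn1* the log2 ratio was 1.99 in cells with at least 3 *Col10a1* UMIs and 2.17 in those with none, and 2.68, 2.76 and 1.83 over the 3 rising ranges of *Col2a1*. For *Mia* it was 1.05 and 1.81, and 2.64, 1.77 and 1.11. The upstream windows of these genes are given in the same way as above, *Matn1* on the plus strand at chr4:130944135-130944384 and *Mia* on the minus strand at chr7:27181150-27181399.
Matn1: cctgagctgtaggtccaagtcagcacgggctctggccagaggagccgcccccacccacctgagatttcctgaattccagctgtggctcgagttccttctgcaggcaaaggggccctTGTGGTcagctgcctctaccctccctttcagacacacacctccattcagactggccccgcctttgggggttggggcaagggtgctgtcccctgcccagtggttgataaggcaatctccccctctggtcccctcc
Mia: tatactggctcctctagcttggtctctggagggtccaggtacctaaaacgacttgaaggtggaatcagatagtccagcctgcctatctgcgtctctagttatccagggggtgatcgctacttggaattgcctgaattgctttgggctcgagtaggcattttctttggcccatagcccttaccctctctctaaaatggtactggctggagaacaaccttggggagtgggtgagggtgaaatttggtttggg
The *Matn1* window held 1 Runx core, 134 bases before the start, and the *Mia* window neither core.

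*Igf2*, the fetal growth factor, had the largest rise among genes that reached 50 CPM in either library. It was at 12.3 CPM in control_7d and 99.6 CPM in RA_7d (log2 ratio 2.92; ratio 8.09, 6.68 to 9.84), with UMIs in 51 cells of each library, or 4.19% and 15.9% of thinned cells. A single RA_7d cell held 20.3% of its UMIs, and without the highest cell of each library the log2 ratio was 2.75. The higher level was in the cells without *Col10a1*, with 11.8 and 151 CPM in them (3.58) but 13.5 and 6.34 CPM in those with at least 3 UMIs of it (-0.99). Over the rising ranges of *Col2a1* the log2 ratio was 4.05, 2.86 and 1.17. In the comparison cells *Igf2* ran the other way, 151 CPM in control_7d and 35.3 CPM in RA_7d. No other of the 11 IGF genes tested passed the fold (list median 0.28), with the binding protein gene *Igfbp4* at 139 and 222 CPM (0.67) and *Igf1r*, the receptor, at 175 and 199 CPM. In cells with at least 1000 *Col2a1* UMIs 4 of 10 were higher and 1 lower (median 0.29), beside 108 and 215 of 8131 genes. Without cells over 50000 UMIs or 7000 genes 1 of 11 was higher and 2 lower (0.06), beside 117 and 107 of 10345.

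Among the other large rises was the complement gene *C3*, which was also higher in the comparison cells of RA_7d. *C3* was at 8.67 and 50.1 CPM in chondrogenic cells (2.40) and 210 and 909 CPM in the comparison cells. Cells with a *Ptprc* UMI held *C3* at 66.5 and 242 CPM, and *Apod* at 38.9 and 109 CPM, and the part of free RNA in these rises was not tested. *Eln* (elastin) was at 8.58 and 54.6 CPM (2.54), but 1 RA_7d cell held 55.7% of its UMIs, and without the highest cell of each library the ratio was 1.65. *Serping1*, an inhibitor of complement C1, was at 37.1 and 111 CPM (1.56), and *Apod* (apolipoprotein D) at 31.3 and 80.3 CPM (1.33). *Slc40a1* (ferroportin, the iron exporter) was at 41.3 and 132 CPM (1.65), *Slit3* at 56.8 and 154 CPM (1.42), *Cadm1* at 32.8 and 88.0 CPM (1.39) and the protease gene *Adamts9* at 36.9 and 91.9 CPM (1.30).

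Genes of bone matrix lay on the low side in RA_7d. Of 12 osteoblast genes tested, 3 were lower past the fold, beside 92 of all 11381 genes (0.808%). Ratios were below 0 for 10 of the 12, with a median of -0.63 against -0.15 in the comparison cells. The 3 were *Bglap* (osteocalcin) at 135 and 14.8 CPM (-3.10), its neighbour *Bglap2* at 76.3 and 4.501 CPM (-3.81) and *Dmp1* at 20.9 and 1.13 CPM (-3.36). All 3 rested on few cells. *Bglap* had UMIs in 42 and 9 cells, with 24.6% and 58.2% of them in the top cell, *Bglap2* in 24 and 7 cells, and 89.5% of the control_7d UMIs of *Dmp1* came from 1 cell. In cells with 10 to 99 *Col2a1* UMIs the direction of *Bglap* was turned (3.01 and 36.3 CPM). Of the list, 1 of 9 was higher there and 1 lower (median -0.29), beside 167 and 94 of 8053 genes. With at least 1000, 1 of 12 was higher and 5 lower (-0.57), beside 108 and 215 of 8131. In cells with at least 3 *Col10a1* UMIs 2 of 11 were higher and 3 lower (-0.31), beside 196 and 216 of 7504. The copies *Bglap* and *Bglap2* are near-identical, so the split of reads between them is uncertain.

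The collagen I genes lay below control_7d short of the fold. The per-cell median of *Col1a1* was 11308 CPM in control_7d (quartiles 6306 and 17292) and 6060 CPM in RA_7d (3640 and 10881), and in the sums the log2 ratio was -0.69, short of the fold. It was below 0 in all 5 subsets, from -0.76 in the middle range of *Col2a1* to -0.31 in cells with at least 3 *Col10a1* UMIs. In the comparison cells, which were chosen by *Col1a1*, its ratio was 0.36, given as a description. *Col1a2* was at 10663 and 7364 CPM (-0.53) and *Sparc* at -0.23. After thinning, at least 20 *Col1a1* UMIs were left in 82.6% and 61.6% of cells (ratio 0.746, 0.582 to 0.949).

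*Ibsp*, the gene of bone sialoprotein, is given by subset. Over all chondrogenic cells it was at 7810 and 5620 CPM (-0.47), and its per-cell median was 274 CPM in control_7d and 33.8 CPM in RA_7d. In cells without *Col10a1* it was at 4214 CPM in control_7d and 669 CPM in RA_7d (-2.65), whereas in cells with at least 3 *Col10a1* UMIs it was at 14905 and 19027 CPM (0.35). Over the ranges of *Col2a1* the log2 ratio went from -2.12 through -0.90 to 0.00. The difference between the subsets was not tested.

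Of 13 hypertrophy genes 1 passed the fold, with a median of 0.07 and 7 above 0. *Col10a1* was at 2742 and 2693 CPM (-0.03), *Ihh* at 116 and 122 CPM (0.07), *Alpl* at 638 and 596 CPM, *Panx3* at 390 and 381 CPM and *Runx2*, the transcription factor of hypertrophy and bone, at 518 and 580 CPM (0.16). *Mmp13* was the one past the fold, at 114 and 290 CPM (1.34), with UMIs in 17.4% and 21.9% of cells and 25.3% and 20.8% of them in the top cell of each library. It was higher in RA_7d cells with at least 3 *Col10a1* UMIs (1.52) and in those with none (1.94), and at 0.96 when cells over 50000 UMIs or 7000 genes, the study's upper limits, were left out. *Spp1* was at 2517 and 1663 CPM (-0.60). In cells with 10 to 99 *Col2a1* UMIs 3 of 13 were higher and 1 lower, with a median of 0.40, beside 167 higher and 94 lower of all 8053 genes tested there.

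Other genes lower in RA_7d at 50 CPM or more included *Acta2* (smooth muscle actin) at 107 and 38.4 CPM (-1.45), *Nav3* at 140 and 53.6 CPM (-1.37), *F13a1* at 327 and 144 CPM (-1.18), *Car12* (a carbonic anhydrase) at 109 and 48.2 CPM (-1.16), *Fabp5* (a fatty acid binding protein) at 220 and 99.2 CPM (-1.14), *Aldh1a3*, which makes retinoic acid, at 109 and 49.9 CPM (-1.12) and *Bmp2* at 87.6 and 40.0 CPM (-1.11). *Car12* was found in 64.5% and 41.7% of cells. In cells without *Col10a1* the direction of *Aldh1a3* (0.30) and *Bmp2* (0.66) was turned, as was that of *Nav3* in cells with at least 3 *Col10a1* UMIs (0.23) and of *F13a1* in cells with 10 to 99 *Col2a1* UMIs (1.74). *Acta2* and *Fabp5* were also lower in the comparison cells of RA_7d (505 and 119 CPM, and 321 and 68.1 CPM). Cells with a *Ptprc* UMI held *Fabp5* at 1150 and 494 CPM and *F13a1* at 222 and 255 CPM, and the part of their free RNA in these values was not tested.

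**Figure D5:**
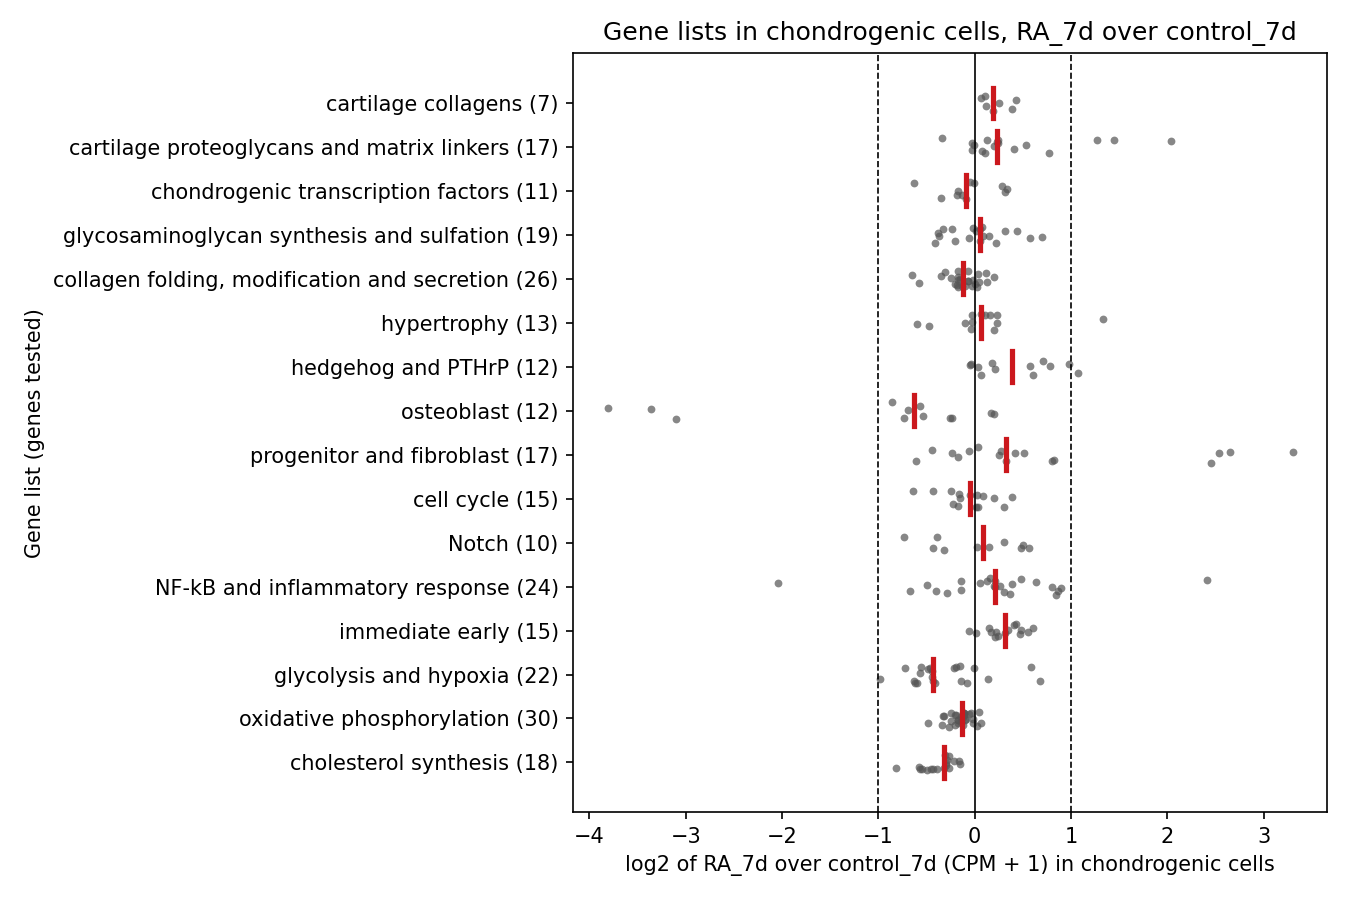
log2 ratio of RA_7d over control_7d in summed chondrogenic cells for each tested gene (points) of 16 gene lists, with a red bar at each list's median and dashed lines at a ratio of -1 and 1. Of the 16 medians that of the osteoblast list is the lowest (-0.63), the cartilage collagens lie wholly above 0 (median 0.19), and most points fall between the dashed lines.

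Among signalling genes, those of the hedgehog and PTHrP loop lay above the middle of all genes, with 10 of 12 ratios above 0 and a median of 0.39. *Ptch1* was at 167 and 274 CPM (0.71) with per-cell medians of 117 and 202 CPM, *Gli1* at 7.85 and 14.3 CPM (0.79), *Gli2* at 12.2 and 25.1 CPM (0.98) and *Hhip*, a decoy receptor induced by the pathway and the only one past the fold, at 3.92 and 9.38 CPM (1.08). The log2 ratio of *Ptch1* was 0.84 in cells without *Col10a1* and -0.19 in those with at least 3 UMIs of it, a difference that was not tested. With doublets left out the list's median was 0.18 and *Hhip* was at 0.96. None of 12 passed with every cell weighted equally or with 10 CPM added. In cells with at least 3 *Col10a1* UMIs the list's median was 0.03, with 5 of 9 above 0. The ligand *Ihh* and the receptor gene *Pth1r*, at 832 and 809 CPM, were level, and *Smo* was at 57.3 and 58.9 CPM.

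In the BMP and TGF-beta list 1 of 26 genes, *Bmp2*, passed the fold (median 0.07), and *Bmp6*, a ligand of hypertrophic cells, was at 546 and 449 CPM and the target *Id3* at 339 and 203 CPM (-0.74). Of 12 FGF genes only the ligand *Fgf7* did, at 6.39 and 25.1 CPM (1.82, or 0.88 within the study's upper limits; list median 0.06), while *Fgfr3*, the receptor that restrains growth cartilage, was at 219 and 207 CPM. Of 18 Wnt genes only the secreted antagonist *Sfrp5* did, at 4.01 and 18.8 CPM (1.98; median 0.02), with *Frzb* at 163 and 218 CPM and *Wnt5b* at 176 and 146 CPM.

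Of 19 Notch genes, 10 reached 50 UMIs and none passed the fold (median 0.08). Within the study's upper limits none of 9 passed, 7 were above 0 and the median was 0.33. In cells with at least 3 *Col10a1* UMIs 1 of 8 was higher and 1 lower (-0.14), beside 196 and 216 of 7504 genes. Against the comparison cells 6 of 19 were lower and none higher, beside 11.9% and 4.42% of 14944 genes. *Rbpj*, the transcription factor on which Notch receptors act, was at 84.3 CPM in control_7d and 85.5 CPM in RA_7d (0.02), with per-cell medians of 71.3 and 76.7 CPM. It was at 113 and 116 CPM in the comparison cells. *Notch2* was at 114 and 169 CPM (0.57) and the target *Hes1* at 89.8 and 99.4 CPM (0.15). Of 7 DNA methylation genes none passed (median 0.20). The methyltransferase gene *Dnmt3b* was at 3.74 and 5.63 CPM (0.48), near the limit of detection, and *Dnmt3a* at 83.6 and 96.4 CPM (0.20).

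Inflammatory genes were mostly at low levels. Of 24 in the NF-kB and inflammatory list 1 was higher and 1 lower past the fold, with 17 above 0 and a median of 0.21. These were the chemokine genes *Cxcl5*, at 5.20 and 31.9 CPM with 67.6% of the RA_7d UMIs in 1 cell and a ratio of -0.11 within the study's upper limits, and *Cxcl2*, at 11.6 and 2.06 CPM. Within the study's upper limits none of 18 passed, 9 were above 0 and the median was 0.01. The list's median in the comparison cells was 0.19. In cells without *Col10a1* 4 of 21 were higher and 1 lower, beside 149 and 107 of all 10221 genes tested there. In cells with 10 to 99 *Col2a1* UMIs 5 of 19 were higher (median 0.43), beside 167 of 8053. With at least 1000 *Col2a1* UMIs 3 of 15 were lower, beside 215 of 8131, 4 were above 0 and the median was -0.15. *Nfkbia*, the inhibitor induced by NF-kB, was at 115 and 125 CPM (0.13), *Nfkb1* at 115 and 128 CPM and *Ptgs2* at 371 and 263 CPM (-0.49). In the interferon and MHC class I list 1 of 13 passed, *Ifit3*, lower (median -0.13), and *B2m* was at 184 and 178 CPM. Of 15 immediate early genes none passed, yet 14 were above 0 with a median of 0.31, beside 0.42 in the comparison cells. In cells with 10 to 99 *Col2a1* UMIs 3 of 15 passed, all higher, beside the 167 of 8053 genes given above. In cells with at least 1000 none passed, 7 of 15 were above 0 and the median was -0.098. *Fos* was at 305 and 447 CPM (0.55) and *Jun* at 291 and 445 CPM (0.61).

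Of 15 genes of matrix breakdown and its inhibitors, *Adamts9* alone passed the fold (median -0.02), and *Timp1* was at 516 and 324 CPM (-0.67). In cells with 10 to 99 *Col2a1* UMIs 1 of 13 was higher (-0.25), beside 167 of 8053 genes. From 100 to below 1000, 3 of 13 were higher (0.26), beside 144 of 9139. In cells with at least 3 *Col10a1* UMIs none of 12 passed (0.53). Of 17 progenitor and fibroblast genes 4 were higher, *Pi16*, *Mmp3*, *Opcml* and *Eln*, beside 141 of all 11381 genes. Their median was 0.33, and 0.66 in the comparison cells. With doublets left out, 8 of 16 were above 0, the median was -0.004 and *Pi16* was at 0.68. There 3 of 16 were higher, beside 114 of 11233 genes. Within the study's upper limits the median was 0.03 and *Opcml* was at 0.12. There 2 of 14 were higher and 1 lower, beside 117 and 107 of 10345 genes. *Dcn* (decorin) was at 1046 and 1397 CPM (0.42) and *Fn1* at -0.61. Among 10 tendon and articular surface genes, *Cilp* (1.52) and *Creb5* (1.15) were higher and the tendon genes *Scx* (-1.42) and *Tnmd* (-1.03) lower, with a median of 0.01. Over all 11381 genes 141 were higher and 92 lower. With doublets left out *Cilp* was at 0.15 and *Creb5* at 0.54, and *Tnmd* was at 1.77 in cells with at least 3 *Col10a1* UMIs and 1.20 in those with at least 1000 *Col2a1* UMIs.

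None of 15 cell cycle genes passed the fold over all chondrogenic cells, and the median was -0.05, beside -1.03 in the comparison cells. In cells without *Col10a1* the median was -0.55 with none of 15 above 0. In cells with at least 3 *Col10a1* UMIs, of which few cycled, it was -1.95 and 4 of 6 were lower, beside 216 of all 7504 genes tested there (median -0.06). In cells with 10 to 99 *Col2a1* UMIs the median was 0.075 with 10 of 15 above 0, in cells with at least 1000 it was -0.095 with 1 of 11 higher, and without the highest cell of each library it was -0.14 with 2 of 15 above 0. *Mki67* was at 53.5 and 56.6 CPM in chondrogenic cells, and at 40.5 and 19.3 CPM in the comparison cells. *Top2a* was at 80.9 and 100.2 CPM (0.30), against 59.2 and 27.3 CPM. Whether the conditions differ between these populations was not tested. Of 9 growth arrest genes none passed (median -0.06), with *Cdkn1c* at 337 and 446 CPM (0.40) and *Cdkn1a* at 255 and 168 CPM (-0.60).

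Metabolic genes lay on the low side in RA_7d without passing the fold over all chondrogenic cells. Of 22 genes of glycolysis and the hypoxia response 3 were above 0, with a median of -0.44, beside -0.68 in the comparison cells. *Ldha* was at 590 and 399 CPM (-0.56), *Pgk1* at 375 and 228 CPM (-0.72) and *Hif1a* at 520 and 371 CPM (-0.48). All 18 cholesterol synthesis genes were below 0 (median -0.32, beside -0.47), and 27 of 30 nuclear genes of oxidative phosphorylation (median -0.13, beside -0.33). Of the cholesterol genes, 3 were above 0 within the study's upper limits (-0.20) and 5 in cells with at least 3 *Col10a1* UMIs (-0.09). In cells without *Col10a1* 2 of 18 were lower past the fold (-0.58), beside 107 of 10221 genes. In the endoplasmic reticulum stress list 17 of 19 were below 0 (median -0.28, beside -0.29), with the chaperone *Hspa5* at 1024 and 787 CPM (-0.38), and *Chac1* was the only one past the fold, at 12.8 and 3.19 CPM (-1.72).

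RNA of other cell types was present, with list sums in control_7d from 2.3 CPM (lymphoid) to 860 CPM (erythroid). The 13 myeloid markers summed to 117 CPM in control_7d and 97.7 CPM in RA_7d, against 21859 and 20455 CPM in cells with a *Ptprc* UMI. The most abundant, *Lyz2*, was at 42.0 and 40.1 CPM, with UMIs in 13.5% and 3.97% of thinned cells and 61.2% of the RA_7d UMIs in 1 cell. *S100a8* was the 1 of 11 tested that passed the fold, lower, with a list median of -0.38. Without the highest cell of each library 6 of 11 were lower (median -1.02), beside 143 of all 11381 genes, and with every cell weighted equally 4 of 11 (-0.84), beside 129. In cells with 10 to 99 *Col2a1* UMIs 4 of 4 were lower (-2.72), beside 94 of 8053 genes. From 100 to below 1000 the direction was turned, with 3 of 4 higher (1.59), beside 144 of 9139. Mural markers summed to 156 and 64.9 CPM, and to 684 and 274 CPM in the comparison cells. *Acta2* was on top, and 3 of 5 were lower (*Acta2*, *Rgs5* and *Des*), beside 92 of all 11381 genes.

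The 5 erythroid markers summed to 860 CPM in control_7d and 513 CPM in RA_7d, led by *Hbb-bs* at 479 and 297 CPM, and 1 of 4 tested, *Hbb-bt*, passed the fold (median -0.75). All 4 were lower with equal weights (median -1.26, beside 129 of all 11381 genes) and within the study's upper limits (-1.58, beside 107 of 10345), and all 4 higher in cells with at least 1000 *Col2a1* UMIs (3.45, beside 108 of 8131). The same list summed to 791 and 492 CPM in cells with a *Ptprc* UMI, and to 365 and 424 CPM in the comparison cells. Endothelial markers summed to 50 and 56.1 CPM (*Pecam1* on top, 1 of 6, *Emcn*, lower past the fold), the 6 Schwann markers to 29.0 and 37.9 CPM (*Cdh19* on top, none of the 2 tested past the fold), muscle markers to 19.9 and 13.3 CPM (*Tnnt3* on top), osteoclast markers to 9.4 and 9.0 CPM (*Acp5* on top, 1 of 6 at 0) and lymphoid markers to 2.3 and 3.0 CPM (*Cd79a* on top, 3 of 8 at 0). With every cell weighted equally 1 of 6 endothelial markers was higher and none lower (median 0.35, 5 above 0), beside 172 of all 11381 genes higher. Within the study's upper limits 2 of 2 tested were higher (1.51), beside 117 of 10345. Without the highest cell of each library 1 of 6 was lower (-0.51), beside 143 of 11381. The part of these other cell types in the results was not tested.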

How the data were processed

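Cells of the scraped callus were loaded at 10000 per pool on the 10x Chromium 3′ v3.1 chemistry. The authors deposited unnormalized UMI counts for each gene in each cell barcode, made with Cell Ranger 7.0.1 on the mouse build mm10 per the labels and the study's methods, 1 matrix for each of 4 libraries. Counts are of 3′ ends, so levels were compared between samples and not between genes.

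Cells with at least 4000 UMIs, at least 2000 genes and at most 8% mitochondrial UMIs were kept. Chondrogenic cells, comparison cells and gene lists were chosen with earlier results of these data known. UMIs were summed per library and population, scaled to CPM and compared as log2 ratios with a pseudocount of 1 CPM for genes with at least 50 UMIs over both sums. A log2 ratio of at least 1 in size counted as past the fold. Shares of cells with a UMI were also taken after each cell was thinned to 4000 UMIs. Intervals were exact (Clopper-Pearson, Poisson, conditional ratio) at 95%. Doublets were called with Scrublet per library. Spearman correlations were over single cells. Of the listed symbols 2 were not in the feature table, and duplicated symbols kept the row with more UMIs. Of the Schwann markers, 1 is not reported here. The scripts were tested on simulated counts.

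Genes named were the markers, *Rbpj* and *Dnmt3b*, of each list the 4 with the highest CPM and those past the fold with at least 20 CPM, the 12 largest rises and 12 largest falls at 50 CPM or more, the 15 highest and 10 lowest against comparison cells, and the 8 best correlated with *Col10a1* or *Col2a1*. Other genes were named after their values were seen, and not all genes the rule gave are printed. *Rpl39l* (116 and 20.4 CPM in control_7d and RA_7d), *Gm47283* (179 and 61.3 CPM) and *1700034P13Rik* (50.5 and 17.1 CPM) were among the largest falls. The first pair has near-identical copies elsewhere in the genome, so their counts are uncertain.

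Alternatives were other cell limits, other *Acan* and *Col2a1* limits, no *Sox9* limit, doublets left out, other denominators, TMM scaling, a total without the 20 most abundant genes, a pseudocount of 10 CPM, other UMI filters, equal weight for every cell, and subsets of the cells. Python 3.11.15, numpy 2.4.6, scipy 1.17.1, pandas 2.3.3, scanpy 1.11.5 and matplotlib 3.10.9 were used.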

Additional observations from a re-analysis of the deposited data

Results flagged for a closer look

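*Igf2* moved in opposite directions in the populations compared at 7 dpf. The log2 ratio of RA_7d over control_7d was 2.92 in chondrogenic cells (12.3 and 99.6 CPM) and -2.06 in the comparison cells (151 and 35.3 CPM). With 1 library per group the difference was not tested.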

How the results depend on the processing

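The share of chondrogenic cells in RA_7d stayed below that of control_7d under every alternative run, with ratios from 0.307 (of chondrogenic and comparison cells together) and 0.379 (over cells without a *Ptprc* UMI, added after the data were seen) to 0.503 (at least 6 *Acan* and 20 *Col2a1* UMIs), beside 0.465. The share with at least 20 *Col1a1* UMIs was 0.989 times that of control_7d without thinning, where nearly all cells passed, and 0.746 with it. Genes past the fold depended on the filter and the pseudocount. With 10 CPM added 37 were higher and 18 lower, with at least 10 UMIs 263 and 218, and with no filter 274 and 218. The balance of 141 higher and 92 lower turned to 196 and 216 in cells with at least 3 *Col10a1* UMIs, 108 and 215 in those with at least 1000 *Col2a1* UMIs, and 124 and 143 without the highest cell of each library. Against comparison cells, 10 CPM added left 404 genes higher and 703 lower, beside 660 and 1775.

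Some single genes turned their direction. Weighting cells equally put *Emcn* at 0.000437, and the study's upper limits put it at 0.84 and *Cxcl5* at -0.11. In cells without *Col10a1*, *Aldh1a3* was at 0.30, *Bmp2* at 0.66 and *Rgs5* at 0.24. In cells with at least 3 *Col10a1* UMIs, *Igf2* was at -0.99, *Nav3* at 0.23, *Cytl1* at -0.19, *Dmp1* at 1.39, *Tnmd* at 1.77, *Cxcl5* at -2.88 and *Ifit3* at 0.16. With 10 to 99 *Col2a1* UMIs, *Bglap2* was at 3.00, *Bglap* at 3.22, *F13a1* at 1.74, *Aldh1a3* at 1.52, *Bmp2* at 0.27 and *Rgs5* at 0.17. From 100 to below 1000, *Emcn* was at 1.04, and with at least 1000, *Tnmd* at 1.20, *Cxcl5* at -2.53, *Ifit3* at 0.30, *Hbb-bt* at 2.99 and *Rgs5* at 0.53. These subsets hold fewer cells, and the cause was not tested. Of 174 single-gene results, those that left their counting interval without turning numbered 35 under TMM scaling, 31 with doublets left out, 60 with equal weights, 86 within the study's upper limits and 98 to 124 in the subsets. No paired analysis was possible because each group is 1 library. Leaving out a replicate could not be run for the same reason.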
